A study of Mus musculus with 12 samples.

Results

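The mouse genes Ms4a4a, Ms4a4b, Ms4a4c, Ms4a6b, Ms4a6c, Ms4a6d, Ms4a7, Tmem176a and Tmem176b were followed across conventional dendritic cells (cDCs) of the spleen. They are 9 of the 55322 rows of the deposited expression table, found by gene symbol, and were selected on measured values of these same libraries in all 4 groups. Their levels and differences are therefore given as a description, calls are given only as counts beside those over all genes, and nothing is read from how many of them passed a threshold. All 9 passed the filter applied to the table, at least 1 FPKM in at least 3 libraries, but Ms4a4a, Ms4a4b, Ms4a6d and Ms4a7 reached it only in cDC2 libraries. FPKM is the number of reads on a gene scaled by its length and by the total of the library. It allows levels of different genes to be compared only as far as the listed length matches the transcripts present.

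There were 4 groups with 3 libraries each, L-cDC1 and M-cDC1 of the cDC1 subset and L-cDC2 and M-cDC2 of the cDC2 subset. The series title speaks of cDCs with a lymphoid origin, and the labels leave the letters L and M unexplained. The label of every library gives the genotype Il7r-cre; Rosa26-lsl-tdTomato, in which cells with a history of Il7r expression and their descendants fluoresce red, whereas the protocol text speaks of naive WT C57BL/6J mice aged 7 to 8 weeks. Whether a library was sorted by the reporter, how many mice were used and whether they were pooled is not in the labels, so p-values measure only the spread between these libraries, which may be technical.

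MS4A proteins cross the membrane several times with both ends in the cytoplasm, and many work as adaptors of immune receptors. The best known member is CD20, encoded by Ms4a1, on B cells, and several others are found in macrophages, monocytes and dendritic cells. Tmem176a and Tmem176b encode related membrane proteins of intracellular vesicles, and mouse TMEM176B is known as a cation channel of dendritic cells that restrains the inflammasome and takes part in cross-presentation. The cDC1 subset is specialised in presenting antigen to CD8 T cells, and the cDC2 subset in presenting it to CD4 T cells.

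The 7 Ms4a genes lie on chromosome 19 between 11298403 and 11582213, and the Tmem176 pair lies on chromosome 6 between 48810752 and 48824005, in the coordinates of the deposited table, whose build is not given in the sources used here. Tmem176a (plus strand) and Tmem176b (minus strand) start head to head and share 81 exonic bases. The RefSeq promoter windows of build GRCm38.p6, each 300 bases from 250 before to 50 after a start, are shown for this pair because they share 219 bases, read from opposite strands; the table holds other windows of both genes, not printed here. Capitals mark the PU.1 core GAGGAA on either strand (TTCCTC on the strand shown), the element bound by a transcription factor of myeloid cells. The first window is chr6:48841406-48841705 on the plus strand and the second is chr6:48841325-48841624 on the minus strand.
Tmem176a: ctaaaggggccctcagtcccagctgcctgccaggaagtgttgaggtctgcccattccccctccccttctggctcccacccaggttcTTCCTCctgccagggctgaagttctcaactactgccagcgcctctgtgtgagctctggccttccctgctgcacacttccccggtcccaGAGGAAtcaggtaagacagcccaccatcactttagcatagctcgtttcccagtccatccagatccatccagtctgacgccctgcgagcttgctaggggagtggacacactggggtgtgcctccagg
Tmem176b: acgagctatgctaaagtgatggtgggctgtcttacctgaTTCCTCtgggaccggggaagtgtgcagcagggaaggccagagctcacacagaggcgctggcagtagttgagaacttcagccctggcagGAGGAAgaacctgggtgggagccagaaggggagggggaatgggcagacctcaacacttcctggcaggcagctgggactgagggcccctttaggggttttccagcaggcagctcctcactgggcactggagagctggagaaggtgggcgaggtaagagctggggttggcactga

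In these windows the PU.1 core stood 164 and 76 bases before the start of Tmem176a, and 211 and 123 bases before that of Tmem176b. These are the same stretches of the genome, read from opposite strands for each gene. The other Tmem176a window held TTCCTC 9 bases after its start, which is the same stretch as that 164 bases before the start in the printed window. The other Tmem176b windows held no match. Of 32851 windows in the RefSeq table, 28.3% held GAGGAA on either strand. Windows were found for 8 of the 9 genes, 12 in all. A match describes the letters of a window and no binding was measured.

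The 4 windows below belong to Ms4a genes that lie next to each other and are shown because they come in like-sequence pairs whose members differed in level. Their positions are chr19:11407411-11407710, chr19:11443308-11443607, chr19:11469118-11469417 and chr19:11518309-11518608, all on the plus strand. Capitals mark GAGGAA in the first pair and the interferon response element GAAANNGAA in the second.
Ms4a4c: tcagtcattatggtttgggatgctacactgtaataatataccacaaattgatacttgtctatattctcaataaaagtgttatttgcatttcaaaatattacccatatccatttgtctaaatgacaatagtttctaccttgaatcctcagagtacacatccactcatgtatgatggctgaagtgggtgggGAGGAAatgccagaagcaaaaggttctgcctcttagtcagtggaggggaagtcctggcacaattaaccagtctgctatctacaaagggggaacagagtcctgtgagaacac
Ms4a4b: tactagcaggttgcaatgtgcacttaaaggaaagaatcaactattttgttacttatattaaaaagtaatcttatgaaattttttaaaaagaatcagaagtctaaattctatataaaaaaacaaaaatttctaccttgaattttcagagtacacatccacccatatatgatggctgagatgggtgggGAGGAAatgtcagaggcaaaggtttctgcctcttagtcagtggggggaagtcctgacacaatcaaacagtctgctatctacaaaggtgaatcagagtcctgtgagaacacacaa
Ms4a6c: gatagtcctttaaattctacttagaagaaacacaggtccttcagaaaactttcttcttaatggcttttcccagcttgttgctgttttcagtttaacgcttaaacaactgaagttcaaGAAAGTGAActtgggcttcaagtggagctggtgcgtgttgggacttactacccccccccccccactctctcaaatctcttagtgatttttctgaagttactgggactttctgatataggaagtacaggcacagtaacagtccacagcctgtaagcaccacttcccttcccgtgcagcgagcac
Ms4a6b: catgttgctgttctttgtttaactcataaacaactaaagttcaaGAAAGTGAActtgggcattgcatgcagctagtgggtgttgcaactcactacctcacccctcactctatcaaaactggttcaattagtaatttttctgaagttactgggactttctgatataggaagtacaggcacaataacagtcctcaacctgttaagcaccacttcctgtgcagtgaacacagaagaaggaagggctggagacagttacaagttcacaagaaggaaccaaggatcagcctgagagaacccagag

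When aligned, the windows of Ms4a4c and Ms4a4b had identical bases over 75.3% of the window length. This was the highest of 61 pairs of windows from different genes, which had a median of 49%. Each held GAGGAA, 61 bases before the start in Ms4a4c and 64 bases before it in Ms4a4b. The windows of Ms4a6c and Ms4a6b had identical bases over 64% of the window length. Both held GAAAGTGAA, 133 bases before the start of Ms4a6c and 206 bases before that of Ms4a6b. GAAANNGAA was present in 8.56% of all windows, and also in both windows of Ms4a7. GAGGAA also stood 43 bases after a start of Ms4a7, and Ms4a4a had no match to either motif.

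All 9 genes had a lower mean in cDC1 than in cDC2 libraries, in L and in M cells alike, and the 2 Tmem176 genes had about the same level in L-cDC1 as in M-cDC1 but a lower level in L-cDC2 than in M-cDC2. The summed FPKM of the 9 genes was 37.5 to 43.8 in L-cDC1, 42.0 to 44.3 in M-cDC1, 576 to 633 in L-cDC2 and 797 to 811 in M-cDC2. The libraries of L-cDC2 and M-cDC2 thus did not overlap in this sum. For the 7 Ms4a genes alone it was 285.1 to 299.7 in L-cDC2 and 302.4 to 319.6 in M-cDC2. These are bulk samples, in which fewer cells of a type and less RNA per cell cannot be told apart.

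**Figure D1:**
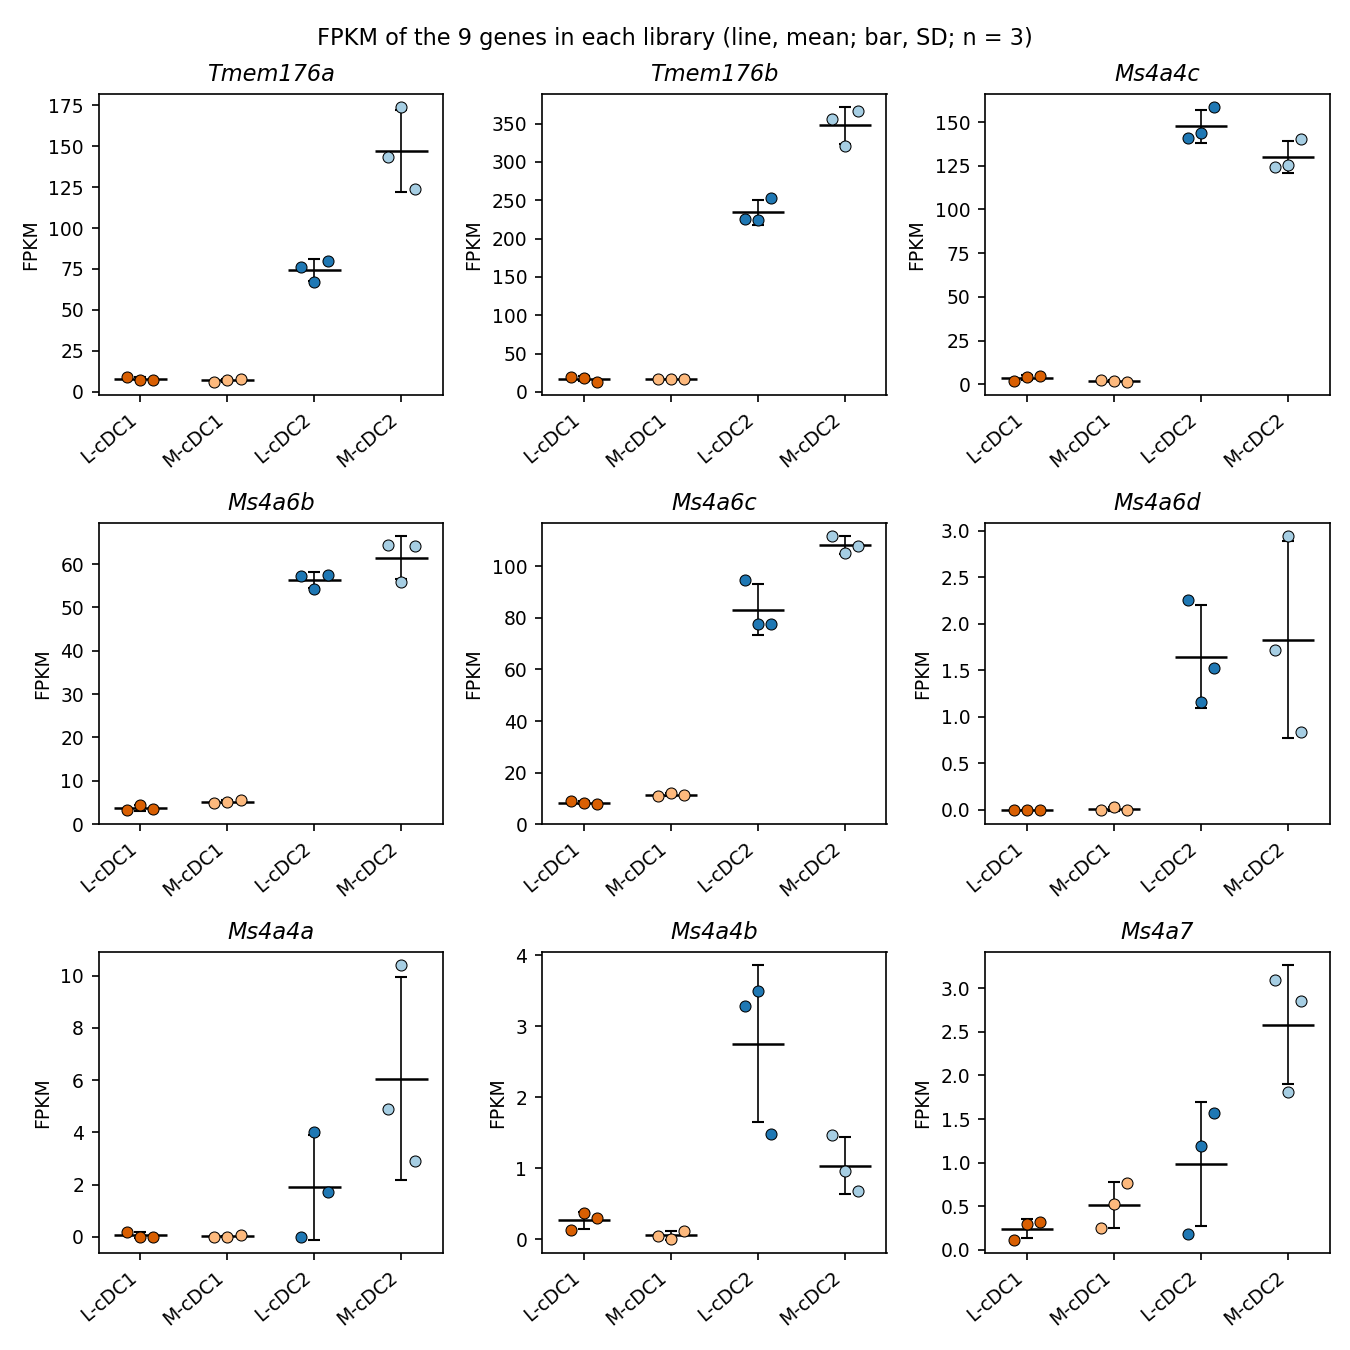
FPKM of the 9 genes (y axis, linear, a separate scale for each gene) in the 3 libraries of each group (x axis, from left L-cDC1, M-cDC1, L-cDC2, M-cDC2); points are libraries, lines are means and bars are SD. Tmem176a and Tmem176b sit lower in L-cDC2 than in M-cDC2, while Ms4a4c and Ms4a4b sit higher.

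Tmem176b (48810752 to 48818430) was the most abundant of the 9 genes in every group. It measured 19.4, 18.6 and 13.4 FPKM in L-cDC1 and 17.3, 16.2 and 17.0 FPKM in M-cDC1. In L-cDC2 it measured 226, 224 and 254 FPKM, against 356, 321 and 366 FPKM in M-cDC2. The cDC1 groups overlapped, whereas every L-cDC2 library lay below every M-cDC2 library. By mean FPKM it ranked 170 among 12434 genes in L-cDC2 and 112 in M-cDC2. The L minus M difference on the log2(FPKM + 1) scale was 0.01 ± 0.12 in cDC1 and -0.57 ± 0.12 in cDC2 (SE of the limma fit, here and below).

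Tmem176a (48817853 to 48824005) lay lower in every library. It measured 8.88, 7.37 and 7.50 FPKM in L-cDC1 and 6.24, 7.09 and 8.03 FPKM in M-cDC1, which overlapped. In L-cDC2 it measured 76.0, 66.8 and 80.2 FPKM, against 143, 174 and 124 FPKM in M-cDC2, with no overlap. Its mean in L-cDC2 was 0.506 times that in M-cDC2, a log2 difference of -0.96 ± 0.14, while the L minus M difference in cDC1 was 0.14 ± 0.14. The difference between these differences, cDC1 minus cDC2, was 1.1 ± 0.20 for Tmem176a and 0.57 ± 0.18 for Tmem176b.

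Within a library, the FPKM of Tmem176b was 2.16 ± 0.36 times that of Tmem176a in L-cDC1, 2.39 ± 0.34 times in M-cDC1, 3.17 ± 0.19 times in L-cDC2 and 2.43 ± 0.56 times in M-cDC2 (SD, n = 3 each). The ratios of the 3 L-cDC2 libraries, 2.98, 3.36 and 3.16, were all above those of M-cDC2, 2.48, 1.85 and 2.96. The gap between the lowest of the first group and the highest of the second was small. The shared exonic bases are 3.42% of the exons of Tmem176b and 2.13% of those of Tmem176a, and the library kits do not mark strand, so reads from them cannot be assigned to either gene.

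Ms4a4c (11382134 to 11404610, plus strand) was the most abundant Ms4a gene in cDC2. It measured 2.05, 4.41 and 4.65 FPKM in L-cDC1 and 2.34, 1.92 and 1.59 FPKM in M-cDC1. In L-cDC2 it measured 141, 143 and 158 FPKM, against 124, 125 and 140 FPKM in M-cDC2. The L-cDC2 libraries were all above the M-cDC2 libraries, though the nearest of them differed by less than 1 FPKM, and the cDC1 groups overlapped because of L-cDC1 replicate 1. The cDC1 minus cDC2 log2 difference was -5.03 ± 0.20 in L and -5.48 ± 0.20 in M. The L minus M difference was 0.63 ± 0.20 in cDC1 and 0.18 ± 0.20 in cDC2.

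Ms4a6c (11446730 to 11459556) and Ms4a6b (11493876 to 11508620), both on the plus strand, followed each other more closely than any other pair of the 9 genes. Ms4a6c measured 9.13, 8.35 and 7.80 FPKM in L-cDC1 against 11.1, 12.3 and 11.2 FPKM in M-cDC1. It measured 94.5, 77.6 and 77.5 FPKM in L-cDC2 against 112, 105 and 108 FPKM in M-cDC2. It was thus lower in every L library than in every M library of the same subset, with log2 differences of -0.41 ± 0.11 in cDC1 and -0.38 ± 0.11 in cDC2. An antisense RNA, BE692007, covers 1088 bases or 53.1% of its exons, and without strand the reads of the 2 genes cannot be told apart. BE692007 was listed at 0.160 to 0.707 FPKM in the cDC1 libraries and at 3.78 to 6.07 FPKM in the cDC2 libraries.

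Ms4a6b measured 3.20, 4.42 and 3.54 FPKM in L-cDC1 against 4.76, 5.18 and 5.50 FPKM in M-cDC1, which did not overlap. It measured 57.3, 54.3 and 57.4 FPKM in L-cDC2 against 64.5, 55.8 and 64.2 FPKM in M-cDC2, which did. The L minus M log2 difference was -0.39 ± 0.12 in cDC1 and -0.12 ± 0.12 in cDC2. The ratio of Ms4a4c to Ms4a6c was 1.79 ± 0.28 in L-cDC2 and 1.203 ± 0.097 in M-cDC2 (SD, n = 3 each), with no overlap between the libraries.

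Ms4a4b (11420917 to 11444419, plus strand) is best known from T cells, where the mouse protein associates with the receptor GITR. It measured 0.133, 0.373 and 0.292 FPKM in L-cDC1 against 0.0406, 0 and 0.119 FPKM in M-cDC1, the M-cDC1 values resting on 8, 0 and 23 reads. It measured 3.28, 3.49 and 1.48 FPKM in L-cDC2 against 1.47, 0.954 and 0.682 FPKM in M-cDC2. L libraries were above M libraries in both subsets without overlap, by 0.26 ± 0.26 in cDC1 and 0.85 ± 0.26 in cDC2 on the log2 scale, though L-cDC2 replicate 3 lay only just above M-cDC2 replicate 1. Of the 9 genes, only Ms4a4b and Ms4a4c had a higher mean in L-cDC2 than in M-cDC2. The summed FPKM of 12 T and NK cell markers without Cd4 was 11.8 to 21.2 in L-cDC1, 0.338 to 0.359 in M-cDC1, 38.9 to 104 in L-cDC2 and 0.974 to 1.51 in M-cDC2. This sum was thus higher in L than in M libraries within each subset, as Ms4a4b was. Unlike Ms4a4b, it was also higher in L-cDC1 than in M-cDC2. The part of such cells in the Ms4a4b difference was not tested.

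Ms4a7 (11298403 to 11313510, minus strand), a gene known from macrophages and microglia, ran the other way. It measured 0.119, 0.292 and 0.317 FPKM in L-cDC1 and 0.250, 0.528 and 0.767 FPKM in M-cDC1. It measured 0.189, 1.195 and 1.57 FPKM in L-cDC2 against 3.09, 1.81 and 2.85 FPKM in M-cDC2. The cDC2 groups did not overlap and their log2 difference was -0.91 ± 0.29, while the cDC1 groups overlapped with a difference of -0.28 ± 0.29. L-cDC2 replicate 1 was within the range of the cDC1 libraries.

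Ms4a4a (11352887 to 11370154, plus strand), whose human protein is reported to associate with the fungal receptor dectin-1 in macrophages, rested on few reads. It had 3, 0 and 0 reads in L-cDC1, 0, 0 and 1 read in M-cDC1, 0, 73 and 26 reads in L-cDC2, and 100, 138 and 47 reads in M-cDC2. In FPKM this was 0, 4.01 and 1.71 in L-cDC2 against 4.88, 10.4 and 2.90 in M-cDC2, which overlapped, with a log2 difference of -1.42 ± 0.48. No read fell on it in L-cDC2 replicate 1, where 3 reads would be 0.151 FPKM. That library lay with the cDC1 libraries for this gene as well as for Ms4a7.

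Ms4a6d (11563968 to 11582213, minus strand) was detected almost only in cDC2. No read fell on it in the 3 L-cDC1 libraries and 1 read in the 3 M-cDC1 libraries, whereas it measured 2.25, 1.16 and 1.52 FPKM in L-cDC2 and 1.72, 2.94 and 0.833 FPKM in M-cDC2. The cDC2 groups overlapped, with a log2 difference of -0.05 ± 0.27. With 3 reads per library as the floor, it was at least 18-fold lower in L-cDC1 than in L-cDC2. In mouse macrophages the protein is reported to work with the receptor VSIG4, whose gene was listed at 0 in all 12 libraries.

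**Figure D2:**
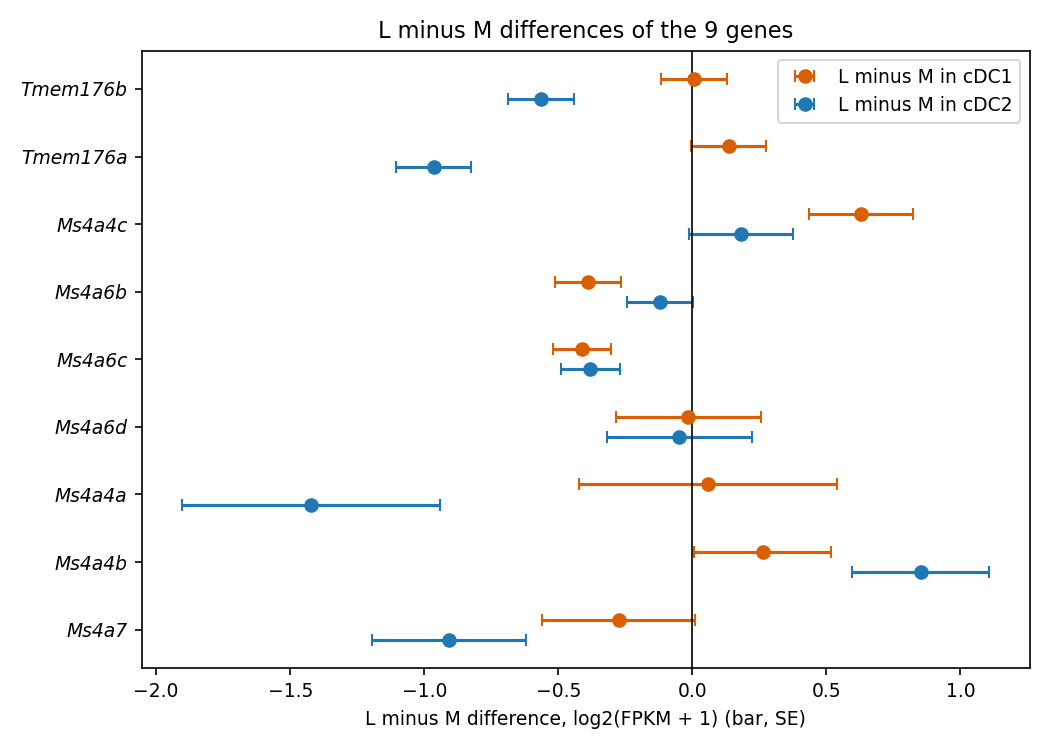
L minus M difference of each of the 9 genes (x axis, log2(FPKM + 1); y axis, genes) in cDC1 and in cDC2, with the SE of the limma fit as bars. In cDC2 Tmem176a lies at -0.96 and Tmem176b at -0.57, while both lie near 0 in cDC1; the other genes spread on both sides.

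Set against the whole table, these counts were as follows. A gene was called at a Benjamini-Hochberg adjusted p under 0.05 in a limma fit over 12434 genes. For L minus M in cDC1, 0 of the 9 genes were called, beside 0.354% of all genes called higher and 0.0402% called lower; 3 of the 9 had an unadjusted p under 0.05, and limma-voom on recovered reads also called 0. In that comparison 1 of the 9 was higher (Ms4a4b) and 2 lower (Ms4a6b and Ms4a6c) without overlap of the libraries, beside 13.9% of all genes that did not overlap in either direction. For L minus M in cDC2, Tmem176a and Tmem176b were called lower and none higher, beside 0.788% and 1.04% of all genes called lower and higher. There 2 of the 9 were higher and 4 lower without overlap, beside 16.9% of all genes.

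For cDC1 minus cDC2, 7 of the 9 genes were called lower in L cells, beside 26.6% of all genes called lower and 12.9% called higher. In M cells all 9 were called lower, beside 25.4% called lower and 12.7% called higher. Without overlap, 7 were lower in L and 9 in M, beside 48.6% of all genes in L and 51.1% in M. The 2 genes outside these counts in L were Ms4a4a and Ms4a7, and both were called once L-cDC2 replicate 1 was left out. For the difference of the L minus M differences, Tmem176a alone was called higher, beside 0.193% of all genes called higher and 0.105% called lower. The rule that picked the 9 genes used all of these contrasts, so the counts carry no weight of their own.

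The median log2 difference of the 9 genes was -0.38 for L minus M in cDC2, beside 0.03 for all genes, and 0.01 for L minus M in cDC1, beside 0.02. For cDC1 minus cDC2 it was -3.08 in L, beside -0.19, and -3.12 in M, beside -0.18. Median-of-ratios scaling moved the median of all genes to -0.04 in L and -0.03 in M. It also moved the calls in L to 2252 higher and 2371 lower, against 1605 and 3308 without it, and those in M to 2176 and 2269, against 1573 and 3163. No cDC1 minus cDC2 difference of the 9 genes changed sign under any of the alternatives run.

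The call of Tmem176b for L minus M in cDC2 was lost in 9 of 20 alternatives, among them leaving out any library of L-cDC2 or M-cDC2 or M-cDC1 replicate 1, while its log2 difference stayed between -0.62 and -0.53. For Tmem176a the difference there ran from -1.08 to -0.84 over the alternatives. Its call for the difference between subsets was lost in 14 of 19, including leaving out any L-cDC1 or L-cDC2 library, either of replicates 1 and 2 of M-cDC1, or either of replicates 1 and 2 of M-cDC2. Since the genes were chosen on these contrasts, the calls are no support for the differences.

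**Figure D3:**
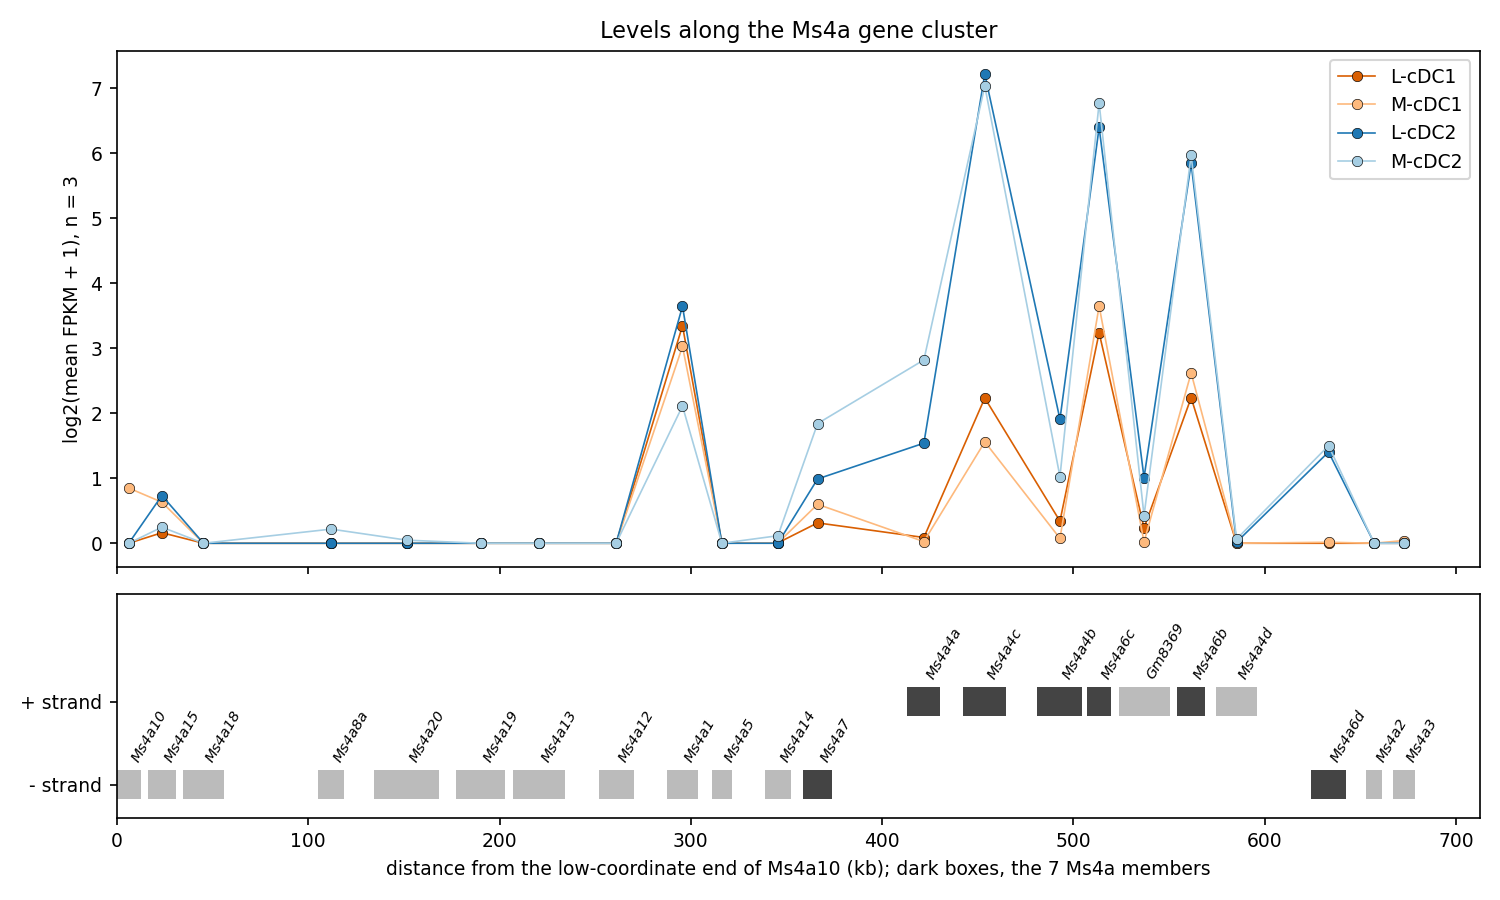
Upper panel, log2(mean FPKM + 1) of each gene of the Ms4a cluster (n = 3 libraries per group; lines join neighbours only as a guide), with the 4 groups in colour; lower panel, extent and strand of the genes against distance in kb from the end of the cluster at Ms4a10, with the 7 Ms4a genes described here in dark. The high cDC2 levels lie at Ms4a4c, Ms4a6c and Ms4a6b, with the low Ms4a4b and Gm8369 between them.

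From the low-coordinate side the order was Ms4a7, Ms4a4a, Ms4a4c, Ms4a4b, Ms4a6c, Gm8369, Ms4a6b, Ms4a4d and Ms4a6d. Ms4a4b ends 2311 bases before Ms4a6c begins, yet its mean in L-cDC2 was 2.75 ± 1.11 FPKM, against 83.2 ± 9.83 FPKM for Ms4a6c (SD, n = 3 each). In reads, the 3 L-cDC2 libraries together held 1591 for Ms4a4b and 10964 for Ms4a6c. The FPKM gap is wider because the listed lengths, all merged exons of a gene, are 8780 and 2050 bases. Which transcripts were present was not tested. Gm8369, an unnamed gene model between Ms4a6c and Ms4a6b, reached at most 1.66 FPKM, in L-cDC2 replicate 2.

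Sequence shared between transcripts could move reads from a gene to its copy. Of 36 pairs of the 9 genes, 3 shared any stretch of 50 bases in GENCODE M21 transcripts: Ms4a4b with Ms4a4c, Ms4a6b with Ms4a6c, and Ms4a6b with Ms4a6d. The shared stretches made up 7.73% of those of Ms4a4c and 1.53% of those of Ms4a4b. They made up 5.85% of those of Ms4a6c and 2.57% of those of Ms4a6b in the second pair, and 2.31% of those of Ms4a6d in the third. How the counting treated such reads is not given in the sources used here, so the low levels of Ms4a4b and Ms4a6d beside their abundant relatives are uncertain to that extent.

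The table holds 14 other Ms4a genes and no other Tmem176 gene. Of these, 6 were listed at 0 in all libraries (Ms4a2, Ms4a5, Ms4a12, Ms4a13, Ms4a18 and Ms4a19), 5 stayed between 0 and 1 FPKM, and Ms4a1, Ms4a10 and Ms4a15 reached 1 FPKM. Ms4a1, the CD20 gene, measured 10.9, 8.52 and 8.03 FPKM in L-cDC1 and 9.31, 6.13 and 6.01 FPKM in M-cDC1. It measured 9.10, 14.1 and 11.3 FPKM in L-cDC2 against 4.16, 1.99 and 3.80 FPKM in M-cDC2, with every L-cDC2 library above every M-cDC2 library. It was not among the 9 genes, and its L minus M log2 difference in cDC2 was 1.55 ± 0.23 (limma adjusted p = 0.00237), a call kept in all 20 alternatives. In cDC1 the difference was 0.33 ± 0.23 (limma adjusted p = 0.702), and the difference between subsets had a limma adjusted p of 0.24.

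Markers of B cells moved with Ms4a1. Of 10 tested B cell markers, itself included, 7 were called higher in L-cDC1 than in M-cDC1 and 8 in L-cDC2 than in M-cDC2, beside 0.354% and 1.04% of all genes called higher. In cDC1 the count was 3 by limma-voom on recovered reads and 3 without the filter. Cd79a, which encodes a chain of the B cell receptor complex, measured 11.03, 15.7 and 23.6 FPKM in L-cDC1, 0.153, 0.230 and 0.406 FPKM in M-cDC1, 15.2, 97.7 and 44.8 FPKM in L-cDC2, and 0.476, 0.216 and 0.850 FPKM in M-cDC2. The summed FPKM of the 12 listed B cell genes was 593 to 946 in L-cDC1, 304 to 352 in M-cDC1, 917 to 3371 in L-cDC2 and 355 to 384 in M-cDC2, of which Ighm was the largest part in M cells. In M-cDC1, Ms4a1 stood at 6.01 to 9.31 FPKM with Cd79a below 1 FPKM. The part of B cell RNA in the cDC2 difference of Ms4a1 was not tested.

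Ms4a10 was listed at 0 in L-cDC1, against 0.484, 1.11 and 0.811 FPKM in M-cDC1, and was also at 0 in both cDC2 groups. With 3 reads per library as the floor it was at least 5.1-fold lower in L-cDC1. Ms4a15 measured 0.357, 0 and 0 FPKM in L-cDC1, 0.451, 0.787 and 0.410 FPKM in M-cDC1, 0.425, 1.16 and 0.403 FPKM in L-cDC2, and 0, 0.213 and 0.348 FPKM in M-cDC2. Neither passed the filter for testing. The next gene beyond Tmem176b, Gimap3, lies 62967 bases away and is known from lymphocytes. It measured 7.83, 18.0 and 9.28 FPKM in L-cDC2 against 0, 0 and 0.0200 FPKM in M-cDC2 (log2 difference 3.57 ± 0.38, limma adjusted p = 0.000119), opposite in direction to the Tmem176 pair. Aoc1, on the other side, did not exceed 0.284 FPKM.

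Of the receptors and signalling chains reported to work with MS4A proteins, Clec7a, Fcer1g and Tyrobp had, like the Tmem176 genes, their highest mean in M-cDC2 and their next highest in L-cDC2. Clec7a, which encodes dectin-1, measured 2.33, 2.102 and 1.37 FPKM in L-cDC1 and 2.04, 1.31 and 1.02 FPKM in M-cDC1. It measured 7.03, 5.34 and 8.31 FPKM in L-cDC2 against 31.3, 28.3 and 24.0 FPKM in M-cDC2. The log2 difference in cDC2 was -1.88 ± 0.21 (limma adjusted p = 0.000152), and the L minus M difference was 2.14 ± 0.29 higher in cDC1 than in cDC2 (limma adjusted p = 0.00851). The call for that difference was lost in 1 of 19 alternatives, limma-voom on recovered reads.

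Fcer1g encodes the common gamma chain of Fc receptors. It measured 30.2, 25.7 and 27.0 FPKM in L-cDC1 against 59.8, 62.3 and 50.3 FPKM in M-cDC1, a log2 difference of -1.03 ± 0.11 (limma adjusted p = 0.000676) kept in all 20 alternatives. It measured 743, 739 and 846 FPKM in L-cDC2 against 978, 1216 and 1114 FPKM in M-cDC2, a difference of -0.50 ± 0.11 (limma adjusted p = 0.0342) whose call was lost in 9 of 20 alternatives. These include leaving out M-cDC1 replicate 1, L-cDC2 replicate 1 or 2, or M-cDC2 replicate 2 or 3. Tyrobp, the adaptor DAP12, had a difference of -0.38 ± 0.09 in cDC2 (limma adjusted p = 0.0541). Tnfrsf18, which encodes GITR, had 0.02 ± 0.15 there (limma adjusted p = 0.979), and Trem2 and Fcer1a were listed at 0 in all libraries. Of the 4 partners tested, 1 was called lower in L-cDC1 than in M-cDC1, beside 0.0402% of all genes, and 2 in L-cDC2 than in M-cDC2, beside 0.788%.

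Of 9 inflammasome genes, all tested, 0 were called for L minus M in cDC1, beside 0.354% of all genes called higher and 0.0402% called lower. There 2 had an unadjusted limma p under 0.05, and limma-voom called 0. In cDC2, 1 was called lower, beside 0.788% of all genes called lower. That gene was Il1b, the cytokine released on inflammasome activation, with 88.9, 86.7 and 90.2 FPKM in L-cDC2 against 183, 140 and 151 FPKM in M-cDC2. Its log2 difference was -0.82 ± 0.18 (limma adjusted p = 0.0387), and the call was lost in 9 of 20 alternatives. These include leaving out any library of L-cDC2 or M-cDC2, L-cDC1 replicate 2 or M-cDC1 replicate 2. For cDC1 minus cDC2, 6 of the 9 were called lower in L cells, beside 26.6% of all genes, and 6 in M cells, beside 25.4%, among them the sensor Nlrp3, the protease Casp1 and Il1b. The adaptor Pycard was called in neither, with 17.1 to 21.2 FPKM in L-cDC2 and 17.9 to 20.1 FPKM in M-cDC2.

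**Figure D4:**
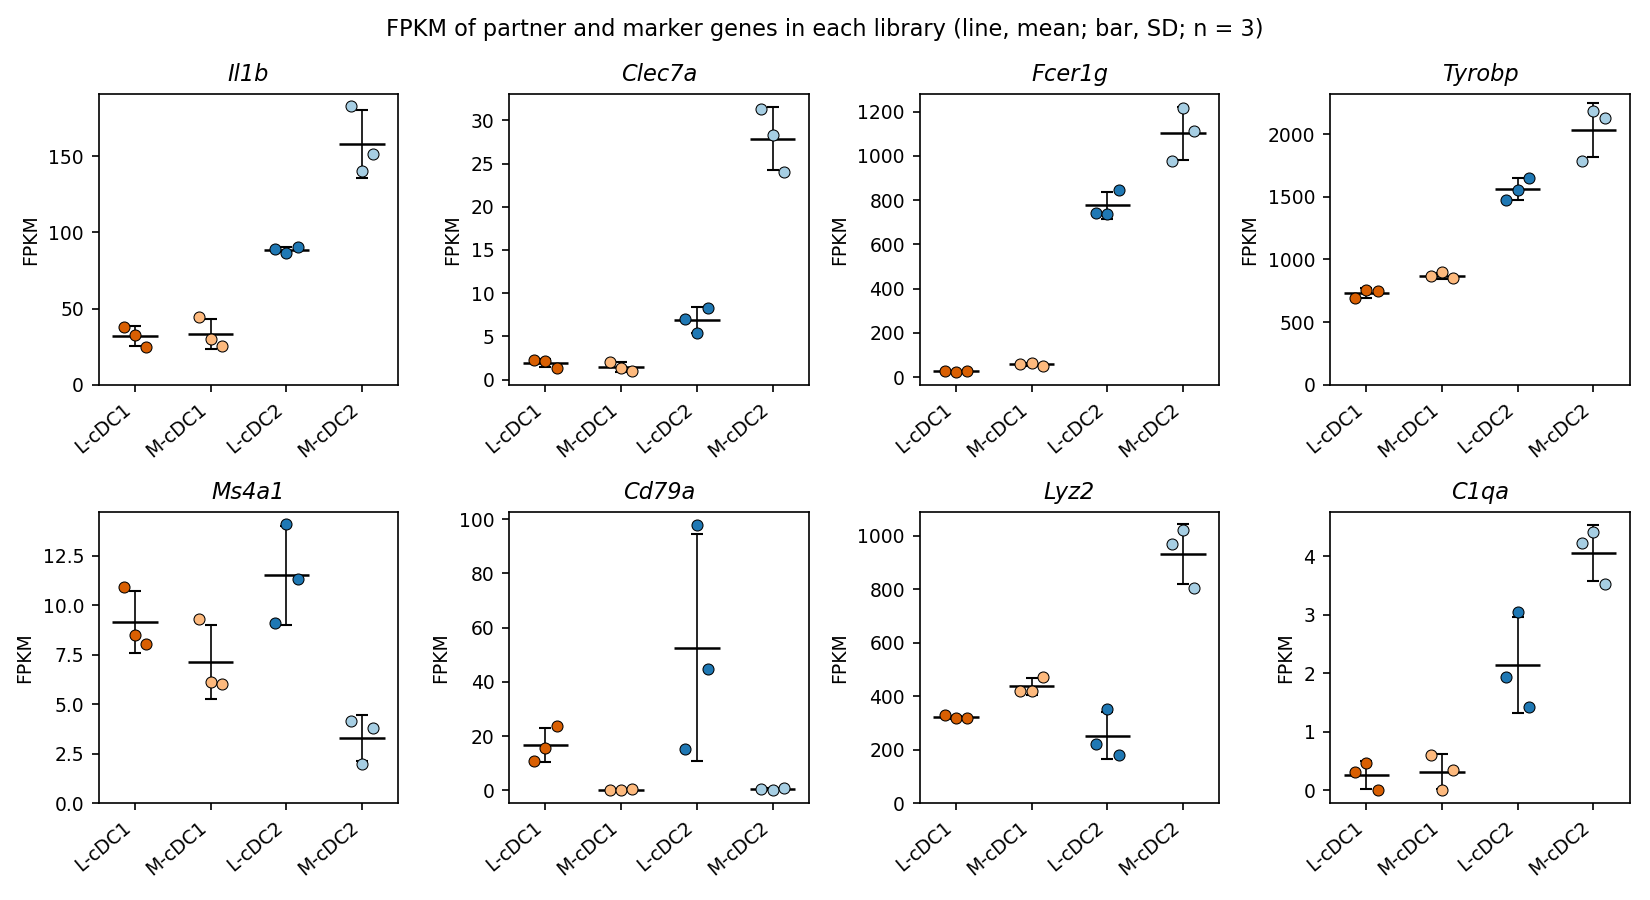
FPKM (y axis, linear, a separate scale for each gene) of Il1b, Clec7a, Fcer1g, Tyrobp, Ms4a1, Cd79a, Lyz2 and C1qa in the 3 libraries of each group (x axis); points are libraries, lines are means and bars are SD. Il1b, Clec7a and Lyz2 lie lower, and Ms4a1 and Cd79a higher, in every L-cDC2 library than in every M-cDC2 library.

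Between cDC1 and cDC2, the markers of each subset followed the labels. All 8 cDC1 markers, among them Xcr1 and Clec9a, were called higher in cDC1 than in cDC2, and all 8 cDC2 markers, among them Sirpa and Clec4a4, were called lower, in L and in M cells. Of all genes, 12.9% were called higher and 26.6% lower in L cells, and 12.7% and 25.4% in M cells. Xcr1 was at 181 to 244 FPKM in L-cDC1 and 200 to 249 FPKM in M-cDC1, against values below 1 FPKM in L-cDC2 and 1.29 to 2.08 FPKM in M-cDC2. Sirpa was below 2 FPKM in the cDC1 libraries, against 171 to 195 FPKM in L-cDC2 and 200 to 229 FPKM in M-cDC2. The summed FPKM of the cDC2 markers was 689 to 798 in L-cDC2 and 815 to 939 in M-cDC2. That shift was carried by Cd209a, with means of 171 and 351 FPKM. Sirpa also had a lower mean in L-cDC2 (184 against 215 FPKM), while Clec4a4 had a higher one (305 against 259 FPKM). Only Cd209a of the 8 was called for L minus M in cDC2, beside 0.788% of all genes called lower. Of the 8, 4 were lower in L-cDC2 and 1 higher without overlap, beside 16.9% of all genes. Cd209a, a lectin gene, was called lower, with 157, 170.4 and 186 FPKM in L-cDC2 against 382, 313 and 359.6 FPKM in M-cDC2 (log2 difference -1.03 ± 0.17, limma adjusted p = 0.00549). Of the 8 cDC1 markers 2, Naaa and Clec9a, were called lower in L-cDC2 than in M-cDC2, beside 0.788% of all genes. The part of these shifts in the Tmem176a and Tmem176b differences was not tested.

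Several markers of macrophages and monocytes, cells that also express several MS4A genes and Tmem176b, moved with the cDC2 difference. Of 18 listed genes 13 were tested, and Csf1r, Lyz2, Cx3cr1 and Ccr2 were called lower in L-cDC2 than in M-cDC2, beside 0.788% of all genes called lower, while 9 were lower without overlap, beside 16.9% of all genes that did not overlap in either direction. The call of Cx3cr1 was lost in 5 of 20 alternatives, among them leaving out M-cDC2 replicate 1 or 2. The macrophage markers Adgre1 and Cd68 were lower without overlap but not called. Their log2 differences were -0.32 ± 0.19 and -0.14 ± 0.11 (limma adjusted p = 0.65 and 0.744). Groups overlapped for Spic, C1qc and Cd14. Ly6c2, a monocyte gene of the same list, had 1.56, 2.80 and 1.39 FPKM in L-cDC2 against 1.505, 0.804 and 0.527 FPKM in M-cDC2, a log2 difference of 0.58 ± 0.24 with overlapping groups (limma adjusted p = 0.414). Lyz2, which encodes lysozyme, measured 223, 351 and 182 FPKM in L-cDC2 against 969, 1021 and 804 FPKM in M-cDC2. The summed FPKM of the list was 612 to 661 in L-cDC1, 735 to 774 in M-cDC1, 710 to 877 in L-cDC2 and 1477 to 1701 in M-cDC2. Without Lyz2 it was 526 to 552 in L-cDC2 and 641 to 680 in M-cDC2. C1qa, a complement gene of tissue macrophages, was at 1.43 to 3.04 FPKM in L-cDC2 and 3.52 to 4.42 FPKM in M-cDC2, and Vsig4 was at 0 throughout. The part of such cells in the Tmem176a, Tmem176b and Ms4a7 differences was not tested.

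Markers of T and NK cells were called higher in L cells, 3 of 8 tested in cDC1, beside 0.354% of all genes, and 6 of 8 in cDC2, beside 1.04%. In cDC1 the count was 0 without the filter and 1 with the filter at 5 FPKM, and in cDC2 it was 2 with the filter at 5 FPKM. That stricter filter leaves Cd3d, Lck, Ncr1, Trac and Trbc2 untested, as they did not reach 5 FPKM in 3 libraries. Cd3e stayed at or below 1.19 FPKM. L-cDC2 replicate 2 had the highest sum of B cell markers, 3371 FPKM against 917 and 1587 FPKM in the other 2 libraries of its group. Without it the L minus M difference in cDC2 was -0.89 for Tmem176a and -0.53 for Tmem176b. The other 2 libraries of the group also lay above the M-cDC2 sums of 355 to 384 FPKM. The part of B cell RNA in the Tmem176a and Tmem176b differences was not tested.

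By likeness of pattern, measured as the root mean square difference of log2(FPKM + 1) over 12 libraries after centring each gene on its mean, the closest pairs among the 9 genes were Ms4a6b with Ms4a6c (0.23) and Tmem176a with Tmem176b (0.30). Outside the 9 genes, the nearest to Tmem176b were Ptger3, a prostaglandin E2 receptor gene (0.10), and Sirpb1c (0.17). The nearest to Tmem176a were Ptpro and Ptger3 (0.27 each). Ptger3 averaged at most 0.162 FPKM in either cDC1 group, against 13.5 FPKM in L-cDC2 and 20.6 FPKM in M-cDC2. Tmem176b averaged 17.1 FPKM in L-cDC1 and 235 FPKM in L-cDC2, a smaller ratio than that of Ptger3. The 1 FPKM added on this scale shrinks differences near 0, so near genes can have unlike ratios between groups. These values describe likeness in these libraries only.

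For Ms4a4c the nearest genes were Rtp4, an interferon-inducible gene (0.23), and Sh2d1b1 (0.32). For Ms4a6b they were Pilrb2 (0.13) and S100a6 (0.16), and the same pair came first for Ms4a6c (0.22 each). Here too ratios differed: Pilrb2 averaged 0.00821 FPKM in L-cDC1 and 10.1 FPKM in L-cDC2, against 3.72 and 56.3 FPKM for Ms4a6b. For the weakly expressed genes they were Sez6l and Krba1 for Ms4a4b (0.21 and 0.24), Ddi2 and Rps6ka4 for Ms4a6d (0.19 and 0.21), Cygb and Tlr8 for Ms4a7 (0.26 each), and Cd209c and C3 for Ms4a4a (0.53 each). A low value is easier to reach for a gene that varies little, and the SD over the 12 libraries ran from 0.669 for Ms4a7 to 2.76 for Ms4a4c.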

How the data were processed

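RNA of 12 libraries of sorted splenic cDCs was read with SMART-Seq HT and Nextera XT kits, which do not mark strand, per the labels' protocols. The authors deposited 1 table of FPKM values with gene lengths and coordinates. Per the submitters' processing notes, the tools were STAR 2.7.9a, featureCounts 2.0.1, DESeq2 1.20.0, cutadapt 3.7, Trimmomatic 0.39 and Trim Galore 0.6.7, with neither role nor order stated, and the build is named as GRCh38, although the symbols are those of the mouse. FPKM multiplied by gene length gave whole reads for 100% of values within 0.01 read, with totals of 15879864 to 24498235 reads per library. The floor of 3 reads covers counting error only, and no source used here says whether PCR duplicates were removed.

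The 12434 genes that reached 1 FPKM in 3 or more libraries were fitted with limma 3.58.1 in R 4.3.3 on log2(FPKM + 1), with 1 mean per group, a trend with intensity and 8 degrees of freedom left. Benjamini-Hochberg adjustment ran over all genes tested, with calls made below an adjusted p of 0.05. Differences on this scale understate the change of low genes. The fit was tested on simulated data. The 9 genes and all gene lists were chosen with earlier results of these data known. Named genes were the 9 genes, other Ms4a genes reaching 1 FPKM, the partners, called markers, neighbours in the table, and the 2 nearest genes by pattern. Alternatives were a pseudocount of 0.1, no filter, a filter at 5 FPKM, median-of-ratios and quantile scaling, limma-voom on recovered reads, a fit of the groups compared only, a replicate block, and each library left out. Promoters came from RefSeq (GRCm38.p6) and were aligned and searched with Biopython 1.88. Protein sequences were not used here.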

Additional observations from a re-analysis of the deposited data

Results flagged for a closer look

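In 5 genes among those listed the L minus M difference was called different between the subsets (limma, difference in cDC1 minus that in cDC2, on the log2 scale). Of all 12434 genes, 0.193% were called higher and 0.105% lower in this way. For Tmem176a, chosen on these values, the difference was 1.1, given as a description, and its call was lost in 14 of 19 alternatives. For Clec7a it was 2.141 (adjusted p = 0.00851). For Lyz2, the lysozyme gene, it was 1.49 (adjusted p = 0.025), and the call was lost in 10 of 19 alternatives, including leaving out any cDC1 library, L-cDC2 replicate 1 or M-cDC2 replicate 1 or 2.

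Spib, a transcription factor gene of plasmacytoid dendritic and B cells, measured 1.31, 3.97 and 5.21 FPKM in L-cDC1 against 0.419, 0.254 and 0.159 FPKM in M-cDC1, and 27.5, 30.6 and 35.6 FPKM in L-cDC2 against 46.4, 46.8 and 33.3 FPKM in M-cDC2. The difference was 2.117 (adjusted p = 0.0491), lost in 15 of 19 alternatives, including leaving out any library except L-cDC1 replicate 1. Gzma, a granzyme gene of T and NK cells, measured 15.2, 31.7 and 8.49 FPKM in L-cDC2 against 0 in the M-cDC2 libraries, and the difference was -3.198 (adjusted p = 0.0426), lost in 16 of 19, including leaving out any library except L-cDC1 replicate 1 and L-cDC2 replicate 3.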

How the results depend on the processing

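Of 99 counts of called genes among the 9 under alternatives, 75 stayed within 1.5 times the value reported. For L minus M in cDC2, where 2 were called, 1 was called without a filter and 1 with the replicate block. For cDC1 minus cDC2 in M, where 9 were called, 5 were called with the filter at 5 FPKM, which tests only 5 of the 9. For the difference between subsets, where 1 was called, 0 were called with a pseudocount of 0.1, without a filter, with limma-voom on recovered reads and with the replicate block. Leaving out a library gave 0 to 1 for L minus M in cDC1, 1 to 2 in cDC2, 7 to 9 for cDC1 minus cDC2 in L, 8 to 9 in M, and 0 to 1 for the difference between subsets. The causes were not tested. Of single-gene log2 differences under alternatives, 834 moved by less than the main fit's SE times the square root of 3, and 37 by more. No called difference changed sign. Ms4a4b was called in cDC2 (L minus M) only without L-cDC2 replicate 3, and Ms4a4c in cDC1 only without L-cDC1 replicate 1. Ms4a4b lost its cDC1 minus cDC2 call in M under quantile scaling and without M-cDC2 replicate 1.

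Same-numbered libraries of different groups had deviations correlated from -0.01 to 0.16 (median 0.03), with 3 of 18 over 0.1. For different numbers the correlations ran from -0.15 to 0.09 (median -0.02), with 0 of 36 over 0.1. Same-numbered libraries thus deviated together slightly more, so pairing by number cannot be set aside. The main fit did not take the numbers as pairs. With a replicate block, the Tmem176b call for L minus M in cDC2 and the Tmem176a call for the difference between subsets were lost. With the block the calls over all genes for L minus M were 38 higher and 7 lower in cDC1, against 44 and 5 without it, and 130 and 103 in cDC2, against 129 and 98. Depth limits Ms4a4a, Ms4a6d and the cDC1 levels of Ms4a4b and Ms4a7, which rest on few reads.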
